A study of Mus musculus with 19 samples.

Results

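Stretches of the mouse genome that were lower in the histone modification H3K27me3 at day 8 after deletion of *Dnmt1* were examined in embryonic stem cells (ESCs). The genome was divided into windows of 10 kb, and 719 of 247243 autosomal windows were selected on their H3K27me3 value being at least 1 log2 unit, which is a 2-fold change, lower in the *Dnmt1* cKO than in the control in each of 2 day 8 pairs. They made up 0.302% of the 238474 autosomal windows with a read, and 91 windows (0.0382%) changed by as much in the opposite direction in both pairs. The members were thus chosen by the day 8 H3K27me3 values, which are given below as a description with no test. The day 4 libraries, the other marks, genes and sequence were not used in it.

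H3K27me3 is the trimethylation of lysine 27 of histone H3, placed by Polycomb repressive complex PRC2 and typical of CpG islands at silent developmental genes in ESCs. CpG islands are stretches rich in the dinucleotide CG, and most are free of DNA methylation. H3K9me2 and H3K9me3 are methylation states of lysine 9, the first found over broad silent regions and the second over heterochromatin, repeats and imprinted loci. DNMT1 is the enzyme that copies DNA methylation to the new strand after replication, and the study asked how repressive marks behave once methylation is lost.

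ChIP-seq for each mark had been done on 1 control and 1 *Dnmt1* cKO sample at day 4 and on 2 of each at day 8, and 1 control sample served as input. By the labels the controls were wild type and the other cells *Dnmt1* KO, all in background strain E14, whereas the methods name *Dnmt1* loxP/loxP ESCs of strain C57BL/6 in which Cre was induced by tamoxifen (4OHT), in serum medium with LIF. Whether controls carried the loxP alleles or received 4OHT is not given in the sources used here, nor whether the numbered day 8 samples came from separate cultures, and the methods speak of a single ChIP-seq measurement, for which the study called no significant differences. The numbered samples were treated as replicates here, so p-values measure only the spread between them, which may be technical. The labels name 1 catalogue number of anti-H3K27me3 antibody for both day 4 libraries but 4 different ones for the 4 day 8 libraries, of which the replicate 1 control has that of day 4, while the methods name a single antibody, and the part of this in the result was not tested. Libraries held 14627174 to 26181489 reads, except 1 day 8 H3K9me3 cKO library (replicate 1) with 5669098. No RNA was measured in these libraries, so ESC markers could not be checked. In a tile of 2000 bp inside *Dnmt1* (chr9:20744001-20746000, NCBIM37), 72 reads were present over the 9 control ChIP libraries and 10 over the 9 cKO libraries, and in H3K27me3 the day 8 control libraries held 7 and 7 reads and the cKO libraries 0 and 0. The window with the *Dnmt1* start was no member, with changes of -0.79 and -0.32 at day 8.

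Values are the mean, over the 5 tiles of a window (fewer at a chromosome end), of the log2 of observed over expected reads in a tile, where the expected number assumes an even spread over the genome. A level is such a value in 1 library, and a change is the cKO level minus the control level of the same day and number. The typical autosomal window lay below 0, at a median of -0.68 for H3K27me3 in the day 4 control and -0.32 in the input, and the average tile held 0.771 of the expected reads.

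The members with the largest mean fall that held the start of a protein-coding gene lay at CpG-rich gene starts. The 200 bases just upstream of the start are shown for 2 of these members from the NCBIM37 reference, because members held more CG sites than other windows. Each is written 5′ to 3′ on the strand of the gene, overlaps no annotated exon, and has every CG, which reads the same on both strands, in capitals. *Cyr61* (chr3:145312950-145313149, minus strand) had 14 CG sites, and 30.7% of 21392 protein-coding gene starts had as many or more. The gene 2700081O15Rik (chr19:7491915-7492114, plus strand) had 19 (17.3%).
Cyr61: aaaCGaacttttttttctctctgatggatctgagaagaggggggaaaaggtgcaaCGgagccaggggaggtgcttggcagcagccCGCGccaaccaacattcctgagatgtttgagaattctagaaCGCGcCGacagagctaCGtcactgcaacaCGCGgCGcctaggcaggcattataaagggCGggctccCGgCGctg
2700081O15Rik: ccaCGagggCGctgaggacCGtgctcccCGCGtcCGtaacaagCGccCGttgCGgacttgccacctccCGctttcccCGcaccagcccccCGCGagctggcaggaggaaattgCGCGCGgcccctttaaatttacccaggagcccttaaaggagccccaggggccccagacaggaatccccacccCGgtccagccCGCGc

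Upstream sequences of this length held a median of 16 CG sites at the 449 member starts with sequence, 7 at all 21392 starts and 11 at 3166 starts in windows with strong H3K27me3 outside the selection (a day 4 control level of 1 or more, 6766 windows). The share with 10 or more CG sites was 74.8%, 43.3% and 56.2%, respectively.

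The members fell into windows that carried H3K27me3 at the start and windows that carried little. In the day 4 control, which the selection did not use, the median level over members was -0.85, but its quartiles were -1.75 and 0.83. A split at 0, chosen after the values were seen, gave 272 H3K27me3-rich members with a median level of 1.13 and 447 H3K27me3-poor members with a median of -1.60. Among windows with a level of 2 or more, 3.93% were members, against 1.74% from 1 to 2 and 0.312% from 0 to 1. The share was 0.0971% from -1 to 0, 0.378% from -2 to -1 and 0.556% below -2. The selection thus drew from windows with high and with low starting levels, with the lowest share from -1 to 0. At the lowest levels few windows were members, 2 of 1199 from -4 to -3.5 and 4 of 2430 from -3.5 to -3.

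**Figure D1:**
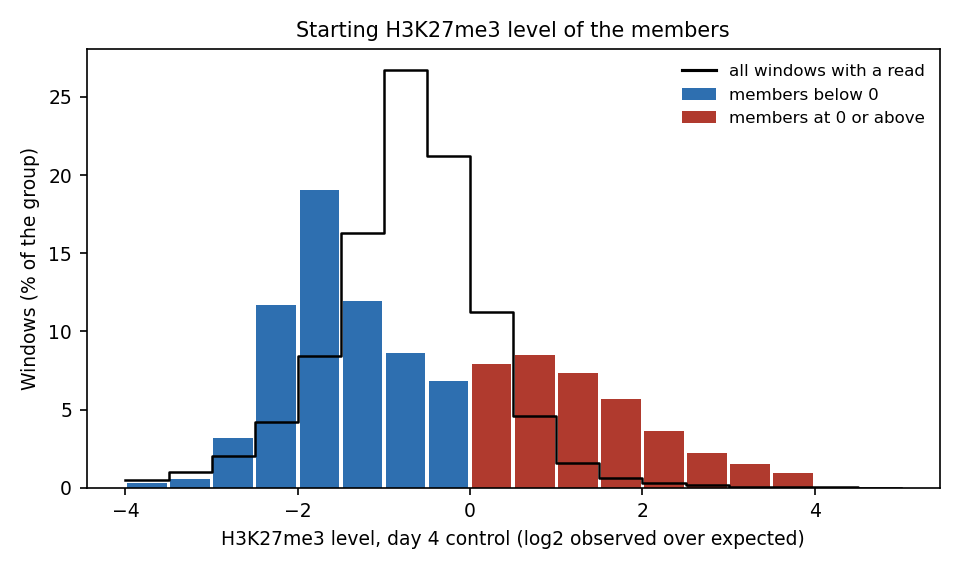
Share of windows (%) by H3K27me3 level in the day 4 control (log2 observed over expected, bins of 0.5), as bars for the 719 members (blue below 0, red at 0 or above) and as a black line for all 238474 windows with a read. All windows peak between -1 and -0.5 (26.7%). Members are spread to both sides of that peak, with 19.05% between -2 and -1.5, where 8.44% of all windows lie.

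Reads behind the values differed between the groups of members. In the H3K27me3-rich members the median window went from 365.5 reads in the control to 148.5 in the cKO in day 8 pair 1, and from 333.5 to 133 in pair 2. In the H3K27me3-poor members it went from 42 to 20 and from 42 to 23, so these windows were measured with lower precision. With at least 30 reads required in both day 8 control libraries, a limit set after the data were seen, 624 members remained, 272 rich and 352 poor. The median day 8 change was -1.16 and -1.38 in rich members and -1.17 and -1.27 in poor members. It was 0.05 and 0.06 over all windows, and -0.20 and -0.33 in the strong windows outside the selection. Reads summed over all 719 windows and scaled to the library totals (RPM) went from 7787 to 3383 in pair 1 and from 6270 to 2367 in pair 2.

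*Cyr61*, which encodes a secreted matricellular protein, lay in the member with the largest mean fall (chr3:145310001-145320000, shared with *Gm17501*). Its H3K27me3 level was 1.19 and 0.82 in the day 8 controls and -0.96 and -1.66 in the cKO, and 0.78 against 0.07 at day 4. The window held 272 and 202 control reads and 54 and 52 cKO reads at day 8, a ratio of reads scaled to the library totals of 0.208 (exact binomial 95% interval 0.167 to 0.257, which covers counting error only). In the day 4 libraries, which the selection did not use, the window went from 222 to 112 reads, a scaled ratio of 0.598. *Ccnd1*, the gene of cyclin D1, which drives entry into the cell cycle, had levels of 0.92 and 0.96 in the day 8 controls and -0.73 and -1.36 in the cKO, and went from 0.71 to 0.24 at day 4. Its day 4 reads went from 248 to 165, a scaled ratio of 0.788. *Zbtb10*, a zinc finger gene, went from 1.28 to -0.32 and from 1.35 to -0.89 at day 8 and from 1.04 to 0.45 at day 4. In the window of 2700081O15Rik the level was higher throughout, at 2.81 and 2.53 in the day 8 controls and 1.12 and 0.35 in the cKO, with 2.69 against 2.24 at day 4.

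The next members held genes of several kinds. *Pbx3*, a homeodomain partner of Hox proteins, went from 1.44 to -0.34 and from 1.08 to -0.94. *Whsc1*, which encodes a histone H3 lysine 36 methyltransferase, went from 1.32 to 0.00 and from 1.63 to -0.72. *Camk2n2*, an inhibitor of a calcium-dependent kinase, AI314180, the window shared by *Tbc1d24*, BC028777 and *Ntn3*, and *Repin1*, a zinc finger gene, completed the 10 windows, whose mean day 8 change ran from -2.31 to -1.79. All 10 were H3K27me3-rich and held 258 to 444 CG sites per window, against a median of 74 over all windows.

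**Figure D2:**
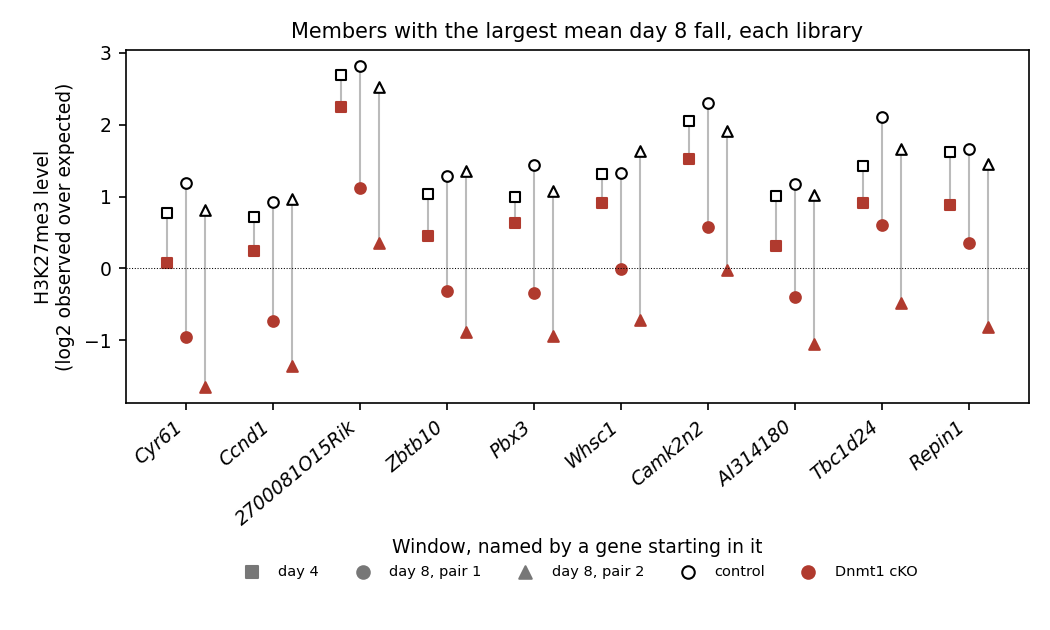
H3K27me3 level (log2 observed over expected) in every library for the 10 members holding a protein-coding gene start with the largest mean day 8 fall, with open symbols for control, red symbols for *Dnmt1* cKO, and squares, circles and triangles for day 4, day 8 pair 1 and day 8 pair 2. Each grey line joins 1 pair, and the day 4 lines are shorter than the day 8 lines in all 10 windows. These windows were picked for their day 8 fall, so smaller day 4 changes were favoured by the selection.

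At day 4 the same windows already lay lower in the cKO in these separate libraries. Of 719 members, 597 had a day 4 H3K27me3 change below 0, which is 83.0% (exact binomial 95% interval 80.1% to 85.7%, counting error only), against 51.3% of all windows. The median change was -0.30 over members and -0.01 over all windows. It was -0.30 in the rich and -0.31 in the poor members, and -0.04 in strong windows outside the selection. Other sets, which include some members, also lay below 0. The median was -0.11 over all windows with 200 to fewer than 300 CG sites and -0.22 over those with 300 or more. It was -0.08 over windows with the starts of all genes and -0.32 over those of 73 ribosomal protein genes, so such falls were not particular to members. A fall of 1 or more, as required at day 8, was seen in 31 members (4.31%), against 0.906% of all windows, and 29 of the 31 were H3K27me3-poor. There was 1 library per group at day 4, so no test was made. The median H3K27me3-rich window went from 314 to 211.5 unscaled reads, in libraries of 22947678 and 19371767 reads. Scaled to the library totals, the sum over rich members went from 4935 to 3958 RPM and the sum over all members from 5947 to 4807 RPM.

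The largest day 4 falls rested on few reads. A window in coding exons of *Atg16l1*, an autophagy gene, changed by -2.02 from 38 to 8 reads, and windows in *Paics* and *Usp34* changed by -1.65 and -1.38. The largest day 4 rises were 0.95 at the start of *Scrib*, from 19 to 27 reads, 0.93 in *Tmem87a* and 0.84 at 8134 bp from *Acox2*. Among the 10 leading members the day 4 change ran from -0.74 at *Repin1* to -0.36 at *Pbx3*.

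Starting levels of the H3K9 marks in the members were low. In the day 4 control the median H3K9me2 level was -1.91 over members and -0.37 over all windows, and the median H3K9me3 level was -1.30 against -0.52. Only 5.01% of members lay above the median of all windows in H3K9me2 (exact binomial 95% interval 3.53% to 6.86%) and 9.32% in H3K9me3 (7.29% to 11.7%), whereas 47.6% did in H3K27me3 (43.9% to 51.3%). In the input the medians were -0.29 and -0.32. At a day 4 control level of 1 or more there were 3 members (0.417%) in H3K9me3, against 0.561% of all windows. In H3K9me2 there was 1 member (0.139%), against 0.0625% of all windows. The 3 were the window of *Airn*, a window without a gene on chromosome 2 (chr2:150020001-150030000) and a window in *Rev3l*, and the 1 was that of *Gm13251*, all named after their values were seen.

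H3K9me2 was higher in the cKO in 1 of the day 8 pairs. The median change over members was 0.06 in pair 1 and 1.02 in pair 2, against 0.00 and 0.02 over all windows, and the mean of both pairs had a median of 0.53 (the pair medians had an SD of 0.685, n = 2 pairs). After correction for GC content the values were -0.15 in pair 1 and 0.78 in pair 2, against -0.03 and -0.02 over all windows. In pair 2 rich and poor members then had 0.77 and 0.79. In pair 2, 377 members (52.4%) rose by 1 or more, against 8.03% of all windows and 27.6% of the strong windows outside the selection, whose median changes were 0.32 and 0.62. All windows with 200 to 299 CG sites had a median change of 1.03 in pair 2, and those with 300 or more 1.33, so windows rich in CG sites as a whole were as high in that pair. With fewer CG sites all windows were lower, at 0.05 from 80 to fewer than 120 sites and 0.38 from 120 to fewer than 200. The H3K27me3-poor members, with a median of 98 sites, had 0.93. In both pairs together 13 members (1.81%) rose by 1 or more, against 0.47% of all windows and 2.01% of the strong windows outside the selection. These 13 included the starts of *Camk2n2*, *Bahcc1*, *Clock*, *Luc7l3*, *Vps26a*, *Tmbim1* and *Nr6a1*, named after their values were seen. The library behind the pair 2 value, cKO replicate 2, had a median level of -0.82 in the members, whereas its control lay at -1.86, both libraries of pair 1 at -2.12 and -2.13 and the input at -0.29. At day 4 the median H3K9me2 change was 0.21, and 41 members (5.70%) rose by 1 or more, against 1.07% of all windows and 3.46% of the strong windows outside the selection, whose median was 0.20.

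By limma with 2 libraries against 2, 0 of 719 members passed an adjusted p-value of 0.05 for H3K9me2, as did 0% of all windows, and the smallest adjusted p-value among members was 0.68. At an unadjusted p-value under 0.05 limma gave 76 members (10.6%), all higher in the cKO, against 7.21% of all windows. With the replicate number as a block the count passing remained 0, with 218 members (30.3%) at an unadjusted p-value under 0.05, against 10.4% of all windows. Without cKO replicate 1, limma called 416 members (57.9%) higher, against 9.25% of all windows. Without cKO replicate 2 it called 0, with 105 members (14.6%) at an unadjusted p-value under 0.05, of which 37 were higher and 68 lower, against 6.94% of all windows, and the median change became -0.06. In both of these limma fits the cKO had 1 library, so the 2 controls alone gave the spread and the lone library was assumed to vary as they did. The size of the H3K9me2 median was set by the second cKO library. The highest mean changes lay 133397 bp from *Cul1* (1.66), at 1110008J03Rik and *Ddx54* (1.64) and at *Bahcc1* (1.62), each at an adjusted p-value of 0.68 by limma. The lowest lay 891299 bp from *Cdh10* (-0.73), at *Arsk* and *Ttc37* (-0.64) and 35755 bp from *Gm10492* (-0.52), and none of these passed.

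The H3K9me3 medians moved little in the members, on low counts. In day 8 cKO replicate 1 the median member held 10 reads. At least 10 reads in each day 8 library were present in 404 of 719 members. The median change was -0.15 and -0.04 in the day 8 pairs and 0.00 at day 4, where all windows had -0.09, 0.02 and 0.02. A fall of 1 or more in both day 8 pairs was seen in 1 member (0.139%), against 0.158% of all windows. By limma 0 members passed (0% of all windows), and 63 members (8.76%, 14 higher and 49 lower) had an unadjusted p-value under 0.05, against 11.8% of all windows. With a trend in eBayes limma called 3 members (0.417%), all lower, against 0.24% of all windows. Without cKO replicate 2 it called 56 members (7.79%), 43 lower and 13 higher, against 12.6% of all windows, and without cKO replicate 1, the shallow library, 2 (0.278%) against 0.0399%. The cKO again had 1 library in these last fits.

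Among members, 3 windows had the lowest H3K9me3 changes. The member that fell in both pairs held coding exons of B230307C23Rik, with H3K9me3 levels of 0.10 and 0.69 in the day 8 controls, -1.27 and -1.0 in the cKO, and 0.65 against -0.07 at day 4. *Repin1* went from 0.23 to -1.55 and from -0.46 to -1.37 at day 8. The window of *Airn*, the imprinted noncoding RNA transcribed from within *Igf2r* (chr17:12930001-12940000), had H3K9me3 levels of 2.11 and 1.39 in the day 8 controls and 1.12 and -0.09 in the cKO, and 1.60 against 1.09 at day 4. These windows were named for their low day 8 values. The mean changes were -1.53, -1.34 and -1.24, each at an adjusted p-value of 0.38 by limma. In the same *Airn* window H3K27me3 went from 0.83 to -0.71 and from 0.50 to -1.11, so both marks were lower there in both pairs. The highest H3K9me3 change lay at *Sik2*, at 1.06 (limma, adjusted p-value 0.38). It rested on few unscaled reads, from 14 to 12 in pair 1, with the shallow cKO library, and from 19 to 26 in pair 2.

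**Figure D3:**
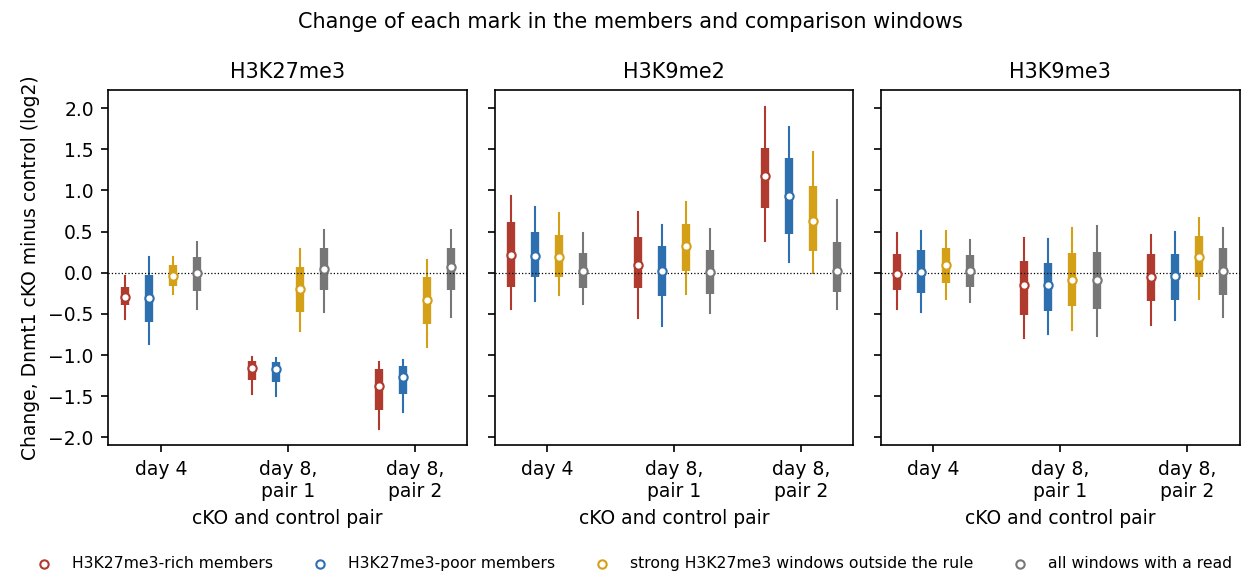
Change (log2, *Dnmt1* cKO minus control) of H3K27me3, H3K9me2 and H3K9me3 in each pair for H3K27me3-rich members, H3K27me3-poor members, strong windows outside the selection and all windows with a read. Circles are medians, thick bars the range between quartiles and thin lines the 10th to 90th percentile of windows. H3K27me3 at day 8 was used in the selection, H3K9me2 was higher in the members in pair 2 (rich 1.17, poor 0.93), and H3K9me3 medians lay near 0.

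A gene start was present in 369 members, or 51.3% (exact binomial 95% interval 47.6% to 55.0%), against 8.21% of all windows. The share was 77.9% in rich members, 35.1% in poor members and 44.6% in strong windows outside the selection. A further 294 members lay in a gene body without a start, and 56 held no gene. In all, 480 of 22512 protein-coding and lincRNA genes (2.13%) started in a member, 264 of them in rich and 216 in poor windows, counted once per symbol, and 448 were protein-coding. Members had a median of 160 CG sites per 10 kb (rich 246, poor 98), against 74 over all windows and 156 in strong windows outside the selection. Of windows with 300 or more CG sites, 10.97% (92 of 839) were members, and of windows with fewer than 40, 0.0734% (19 of 25874).

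**Figure D4:**
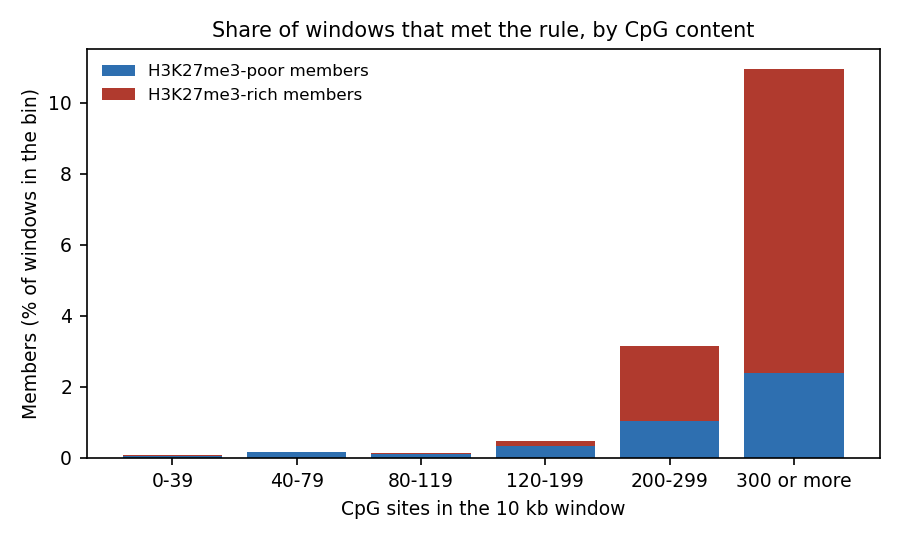
Share of autosomal windows (%) that were members, by number of CG sites in the window, stacked as H3K27me3-poor (blue) and H3K27me3-rich (red) members. The share lies between 0.0734% and 0.488% up to 199 sites and is 3.16% from 200 to 299 and 10.97% at 300 or more.

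Around the gene starts of the members, H3K27me3 was read by tile as a description, since these day 8 libraries chose the windows. In the rich members, in the tile with the start, the mean number of reads over expected went from 5.34 to 1.87 in day 8 pair 1 and from 4.00 to 1.15 in pair 2 (244 starts). In the tile 2 kb downstream it went from 6.23 to 2.36 and from 4.88 to 1.46, and at day 4 from 4.53 to 3.46. In the poor members the start tile lay below the tiles 2 kb to either side in the controls, at 0.756 and 0.590, and went to 0.295 and 0.204 (205 starts). Over all 21392 starts it went from 2.46 to 1.80 and from 1.94 to 1.37. A median of 2 of the 5 tiles of a member were lower by 1 or more in both pairs (rich 3, poor 2), and in 31 members, all poor, no single tile was. Neighbouring windows at 10 kb that were not members changed by -0.30 and -0.44 on the lower-coordinate side and by -0.28 and -0.49 on the other, and windows at 50 kb by -0.07 and -0.18 and by -0.10 and -0.23.

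**Figure D5:**
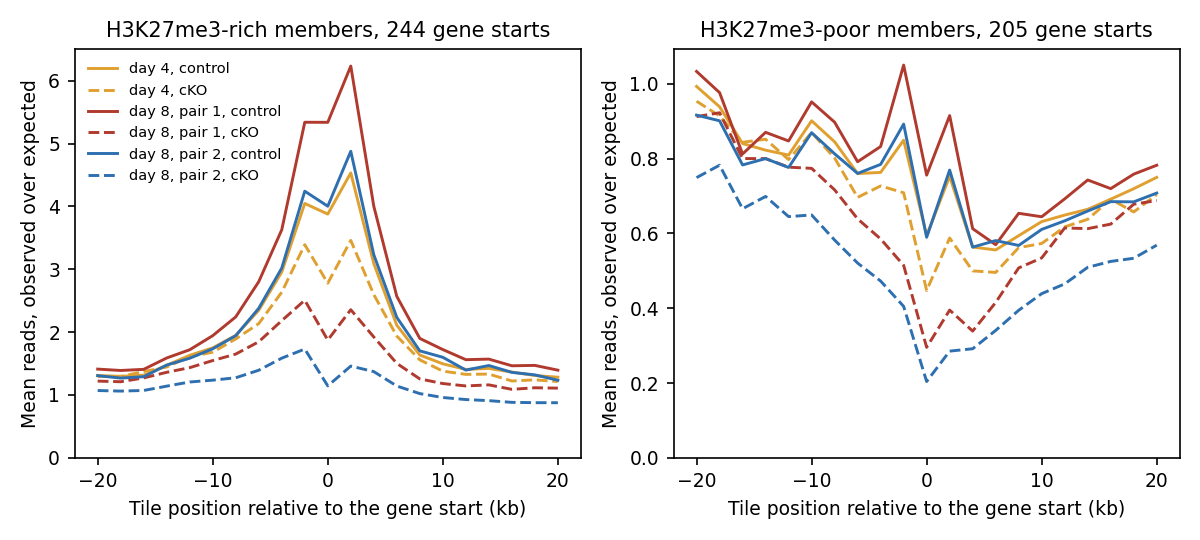
Mean reads over expected in tiles of 2 kb from 20 kb before to 20 kb after gene starts in H3K27me3-rich (left, 244 starts) and H3K27me3-poor members (right, 205 starts), solid for control and dashed for *Dnmt1* cKO. In rich members the day 8 controls peak at 6.23 and 4.88 in the tile 2 kb downstream, where the cKO lies at 2.36 and 1.46. The right axis covers a smaller range than the left.

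Most members stood alone. There were 661 single windows, 23 pairs and 4 runs of 3. The run with the largest mean change (-1.34) lay on chr8:86520001-86550000 with the starts of *Samd1*, 1700067K01Rik, 2210011C24Rik and *Palm3*. Another (-1.22) lay within *Lats2*, a kinase of the Hippo pathway, on chr14:58340001-58370000, and the third (-1.19) covered *Wnt6* and *Wnt10a*, which encode Wnt ligands, on chr1:74820001-74850000. The fourth (-1.16) ran from *Pom121l2* to *Prss16* on chromosome 13. Chromosome 11 held the highest share of members (67 windows, 0.564%) and chromosome 3 the lowest (24 windows, 0.154%).

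The lists of genes were then read against the 2.13% of all genes that started in a member, with no test. None of 39 *Hox* genes, which pattern the body axis, started in a member. In a list this short a count of 0 cannot be told from the 2.13% of all genes. All 39 started in strong H3K27me3 windows, with a median starting level of 4.13 and median changes of -0.70 and -1.02. Of 115 other homeobox and Pax genes 3 did, among them *Pou4f1* and *Pou3f1*, while 106 started in strong windows outside the selection. *Pou4f1*, a regulator of sensory neurons, had the highest counts of these, with 2129 and 1866 reads in the day 8 controls and 783 and 715 in the cKO (levels 4.37 and 4.07 against 2.93 and 2.39). Its cKO level still exceeded that of the controls at *Cyr61*.

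Of 85 Sox, Fox, Gata, T-box and bHLH lineage genes, 7 started in a member, all H3K27me3-rich, among them *Id2*, *Sox21*, *Sox17*, *Tbx20*, *Foxd3* and *Olig2*. *Id2*, an inhibitor of bHLH factors, went from 2.31 to 0.93 and from 2.00 to 0.15, and *Sox17*, an endoderm regulator, from 3.89 to 2.75 and from 3.54 to 2.05. Of 60 Wnt, Fgf and Bmp ligand genes there were 4 (*Wnt10a*, *Fgf20*, *Fgf11* and *Bmp4*), and of 28 Notch and Hedgehog pathway genes 0. Among 7 cyclin-dependent kinase inhibitor genes, *Cdkn2a* and *Cdkn2b*, tumour suppressors that block the cell cycle, started in adjoining members on chromosome 4. *Cdkn2a* went from 1.95 to 0.78 in pair 1 and from 1.86 to -0.47 in pair 2, so its fall differed between the pairs by more than 1 log2 unit. *Cdkn2b* went from 1.89 to 0.83 and from 1.76 to -0.22.

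Among 20 pluripotency genes *Klf4* alone started in a member, going from 0.78 to -0.33 and from 1.56 to -0.45. Of 8 DNA methyltransferase and Tet genes *Dnmt3b*, which encodes a de novo methyltransferase, did, from 1.14 to 0.13 and from 0.57 to -0.86. None of 10 PRC2 subunit genes and 1 of 19 PRC1 subunit genes did, *Bmi1*, in a window shared with *Commd3* (3.15 to 2.01 and 2.95 to 1.34). The 45 imprinted genes gave *Airn* and *Peg12*, and 23 germline genes silenced by methylation, 10 genes of the 2-cell stage and 1 H3K27 demethylase gene gave 0.

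Ribosomal protein genes were also among the members, in windows classed as poor, and their activity was not measured here. Of 73 ribosomal protein genes 5 (6.85%) started in a member, *Rpl7*, *Rpl35*, *Rpl15*, *Rpl28* and *Rpl32*, all H3K27me3-poor. The *Rpl7* window was shared with *Rdh10* and held 261 and 183 reads in the day 8 controls, against a median of 42 in poor members. *Rpl35* held 33 and 38 reads in the day 8 controls and 15 and 14 in the cKO (levels -1.67 and -1.66 against -3.02 and -3.60). Zinc finger (*Zfp*) genes gave 9 of 353 (2.55%). *Zfp580* went from 2.42 to 0.67 and from 1.91 to 0.32, while *Zfp706* rested on 24 and 38 control reads and 9 and 11 cKO reads.

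Of the 3 members without a gene and with the largest mean fall, only 1 was H3K27me3-rich. It lay 10324 bp from *Gm17323* on chr1:180290001-180300000 and went from 2.09 to 0.64 and from 1.74 to -0.28. The window 20115 bp from 1500031L02Rik went from 101 and 89 reads to 35 and 33. The window 35755 bp from *Gm10492* is a fragment at the end of chromosome 17 (chr17:95270001-95272651), shorter than 10 kb, and held only 10 and 7 control reads and 2 and 1 cKO reads, and its ratio of 0.164 had an exact binomial 95% interval of 0.031 to 0.567. At the limit of the selection, the smaller of both falls was 1.0 log2 unit at *Gm3200* and in an intron of *Exoc4*, just inside, and also 1.0 (rounded) at *Doc2a* and *Shisa7*, just outside. *Doc2a* (level 0.09) and *Shisa7* (1.66) carried H3K27me3 in the day 4 control, whereas *Gm3200* (-0.62) and *Exoc4* (-2.93) lay below 0.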

How the data were processed

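For ChIP-seq, the authors used Trim Galore for trimming and Bowtie2 (version 2.2.9 in the submitters' processing notes) for alignment to NCBIM37, keeping alignments with a mapping quality of at least 20. The deposited values are log2 observed over expected reads in tiles of 2000 bp for 19 libraries. Input was not subtracted. Whether duplicates were removed is not given in the sources used here. The methods name a smaller tile than the table holds, and the table was used as deposited. All low values stepped in whole reads (within 0.02), so reads were recovered. Empty tiles carry the value of 0.9 reads, so these values depend on depth.

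Tile values were averaged per 10 kb window on autosomes, and 8769 windows without any read were set aside. Controls and cKO were paired by day and replicate number. The numbers share only a number, since nothing says that they mark a batch. H3K9me2 and H3K9me3 at day 8 were tested over all windows in R 4.3.3 with limma 3.58.1 (lmFit, then eBayes with no trend, 2 against 2, two-sided, Benjamini-Hochberg, threshold 0.05). The code was run on simulated reads with counting error alone and no added spread between replicates. That run therefore does not show how many real changes would be missed here. Windows without reads in the 4 libraries were left out. Other summaries used Python 3.11.15, pandas 2.3.3 and scipy 1.17.1. Shares have exact binomial 95% intervals for counting error alone. Neither reads, which had no molecular identifiers, nor neighbouring windows are independent. Genes, GC content and CG sites came from the NCBIM37 annotation and sequence. Gene starts are those of protein-coding and lincRNA genes. Upstream sequence and start profiles used protein-coding starts, each position counted once.

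The members and the gene lists were chosen with earlier results of these data known. Named were the 10 members with the largest mean fall at a protein-coding start, up to 3 genes per list with the largest fall in a member, the 3 members without a gene with the largest fall, the 3 largest falls and rises at day 4, the 3 highest and lowest changes per H3K9 mark, the longest runs, the 2 windows on either side of the threshold, and *Dnmt1*. Other names were given after values were seen. Some items that this rule gave are not reported here. Alternatives were summed reads, centred libraries, GC correction (bins of 0.02), other thresholds, a shifted grid, filters on low reads, a replicate block, a trend in eBayes and leaving out each library.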

Additional observations from a re-analysis of the deposited data

Results flagged for a closer look

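In 7 of the members named above the H3K27me3 change had opposite signs at day 4 and day 8, as the single day 4 pair rose while both day 8 pairs fell by 1 log2 unit or more. The day 4 change was 0.953 at *Scrib*, 0.933 in *Tmem87a*, 0.844 near *Acox2*, 0.636 at 1110008J03Rik and *Ddx54*, 0.212 at *Rpl7* and *Rdh10*, 0.191 at *Sik2* and 0.063 near 1500031L02Rik. Such windows were not rare, since 597 of all 719 members, and 51.3% of all windows, had a day 4 change below 0. The difference between the days was not tested, since day 4 had 1 library per group. *Scrib*, *Tmem87a* and *Acox2* were named for their day 4 rise. Reads went from 19 to 27, from 20 to 30 and from 23 to 28 in these 3 windows at day 4. At *Rpl7* the reads went from 196 to 131, in libraries of 22947678 and 19371767 reads, so the summed reads and the mean of tile values differed in direction there. *Sik2* was the only window of the 7 classed as H3K27me3-rich by the mean of tile values, with levels of 0.26 and 0.45 at day 4 and 0.72 and 0.74 in the day 8 controls. In summed reads the *Rpl7* window was not lower, with 196 in the day 4 control against 188 at *Sik2*.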

How the results depend on the processing

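The number of windows selected depended on the scale and the threshold. It was 719 by the given rule, 844 from summed reads (423 shared, 222 rich and 201 poor), 1138 with centred libraries (all 719 shared), 1175 after GC correction (708 shared), 33 at a threshold of -1.5 and 2183 at -0.8, and 1995 with no replicate block, from group means in place of pairs. Leaving out a pair gave 2974 to 5633. A grid shifted by 5 kb gave 734 windows, in which 40.2% of members were found again. A filter on tiles without reads gave 726 (718 shared). Summed reads thus kept a larger part of the rich than of the poor members. Centring removed differences of library medians (cKO minus control) of 0.05 and 0.12 in H3K27me3 at day 8 and -0.19 in H3K9me3 pair 1. Every H3K27me3 change at day 8 was thereby lowered, so all members had to pass again. Their full overlap is therefore no measure of stability.

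For H3K9me2, limma called 0 windows, and leaving out 1 library gave 0 to 22430 windows and 0 to 416 members, with a median over members from -0.0558 to 1.16, negative without cKO replicate 2. For H3K9me3 limma called 0 windows, 23 with the replicate block, 572 with a trend (3 members) and 1 where every library held at least 10 reads. Leaving out 1 library gave 0 to 29918 windows, of which 8 without control replicate 2, 95 without cKO replicate 1 (2 members) and 29918 without cKO replicate 2 (56 members). The H3K9me3 median became 0.000962 with centred libraries. Windows without reads kept, an alternative added after the data were seen, gave 0 for both marks. The correlation of deviations of libraries with the same number over 2 pairs was 0.234 in H3K27me3, 0.191 in H3K9me2 and 0.0909 in H3K9me3, and the block changed no other call.

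GC correction moved the members with a day 4 change below 0 from 31.7% to 42.4% in H3K9me2 and from 49.8% to 56.1% in H3K9me3, and those above the median of all windows in the day 4 control from 47.6% to 41.6% in H3K27me3 and from 5.01% to 7.93% in H3K9me2. The day 4 H3K9me3 median of 0.00272 became -0.0115 with summed reads, -0.0192 with centred libraries and -0.0503 after GC correction. The cause of these shifts was not tested. Of 109 alternatives, 82 were scored as the same. For a count this meant lying within a set fold of the main count, and for a share lying inside its exact binomial interval. For a median it meant the same sign and, at day 8, a shift smaller than the SD of the pair medians. The score did not ask whether the same windows were selected. Summed reads and the shifted grid scored as the same but found 58.8% and 40.2% of members again. Low counts in H3K27me3-poor windows, 1 library per group at day 4 and 2 at day 8 limit the precision.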
